A study of Homo sapiens with 9 samples.

Results

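The untreated state of HT-29 cells was described from the 3 control libraries of a series of 9 RNA-Seq libraries. The HT-29 line was derived from a human adenocarcinoma of the colon. The series exposed triplicate cultures to 0 µM, 5 µM or 10 µM 5-aza-deoxycytidine (5-Aza), an inhibitor of DNA methyltransferases, and the control cultures received the vehicle, dimethyl sulfoxide, alone for 5 days. The members were chosen by their label only (0 µM, biological replicates 1 to 3), and the 6 drug-treated libraries were not compared with them. Each replicate is a separate dish of a single cell line, so the spread given below is that between dishes and carries no variation between tumours or patients. With 1 group there was no contrast to test, and no p-value is given.

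The colon is lined by a single layer of epithelial cells that is renewed from stem cells at the base of the crypts. Their descendants become absorptive colonocytes or secretory cells, of which mucus-producing goblet cells are the most common in the colon and hormone-producing enteroendocrine cells, tuft cells and Paneth cells are rarer. Constant Wnt signalling, most often through loss of APC, keeps colon cancer cells in a proliferating state, and many colon tumours silence sets of genes by methylation of CG dinucleotides at their promoters. HT-29 cells are widely used because they can take on absorptive or goblet features, depending on how they are grown.

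Gene levels are given in TPM, a per-length share of the transcripts of a library. Here this is the deposited FPKM value of a gene divided by the sum of the FPKM values of all genes that are not short, times 1000000, so that 1 TPM equals 5232, 5158 and 4495 FPKM in replicates 1, 2 and 3. A gene was called short when its annotated transcript was under 300 nt. A symbol with no matched length was called short when its name was that of a small RNA class. Because FPKM and TPM are per length, the levels of different genes can be set side by side. The files listed 23284 gene symbols, of which 15338 reached 10 FPKM in every library. A total of 12773 symbols (54.9%) reached 1 TPM in all 3 libraries, 15499 (66.6%) were above 0 in all 3 and 5529 (23.7%) were listed at 0 in all 3. The 1528 symbols (6.56%) within the top 10% of the symbols above 0 in every library are called highly expressed below, and the lower bound of that range was 114 to 116 TPM. These 4 shares are the background for every gene list that follows, and they include 1675 short symbols. Of the 21609 longer symbols, 4029 were listed at 0 in all 3 libraries, 12678 reached 1 TPM in all 3 and 1476 were highly expressed. The share at 0 is thus lower, and the share at 1 TPM higher, among longer genes than over all symbols.

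The libraries were of unequal depth. Low FPKM values step in whole fragments, and the size of that step gave an estimate of 17028726, 25668232 and 31935717 fragments over genes with an annotated length for replicates 1, 2 and 3. Across all symbols, Spearman's rho between pairs of libraries lay between 0.973 and 0.980, given here as a description across genes that share depth and annotation. The spread between libraries depended on the level. The median SD of log2 TPM was 0.23 for genes between 1 and 10 TPM, 0.11 between 10 and 100 TPM, 0.07 between 100 and 1000 TPM and 0.09 above 1000 TPM.

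The highest values in the files belonged to very short genes, whose sequences are shown because they bear on how the top of the ranking can be read. Of the 20 symbols with the best median rank, 5 were short, and the microRNA gene MIR5047 stood first with 36057, 16148 and 32757 TPM. The 3 values differed by more than 2-fold, a wider range than that of any of the first 20 longer genes except MALAT1. MIR5047 (chr17:62497332-62497431, minus strand, GRCh37) lies with all 100 of its bases inside an exon of DDX5 on the same strand, and DDX5, an RNA helicase gene, stood at 414, 417 and 430 TPM. MIR1282 (chr15:44085857-44085957, minus strand, GRCh37), at 9355, 7418 and 15211 TPM, lies with all 101 bases inside an exon of SERF2 on the opposite strand, and SERF2 stood at 220, 206 and 194 TPM. Fragments of the host messenger RNA and of the microRNA gene could not be told apart from the files. SNORD12B, a small nucleolar RNA gene, shared 88 of its 91 bases with its host ZFAS1 (listed as ZNFX1-AS1), which was itself at 1648, 1814 and 1536 TPM. MIR3648, at 5441, 14430 and 26432 TPM, and the RNA component of RNase MRP, RMRP, at 7840, 3490 and 9567 TPM, overlapped no exon of another gene in the annotation. The mature microRNAs of both host-embedded genes are given with their seed (bases 2 to 8) in capitals, 5′ to 3′, from RefSeq (GRCh38.p14), at chr17:64501230-64501250 and chr15:43793732-43793751 on the minus strand.
hsa-miR-5047: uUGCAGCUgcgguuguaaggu
hsa-miR-1282: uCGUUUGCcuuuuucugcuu

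The microRNAs best known from gut epithelium were read from very few fragments. A single fragment at a gene of 110 nt was worth 2484690, 1645590 and 1163630 FPKM in replicates 1, 2 and 3. MIR192 (chr11:64658609-64658718, GRCh37) was listed at 1425, 957 and 2071 TPM, which came to 3, 3 and 8 fragments. All 110 of its bases lie inside an exon of MIR194-2HG on the same strand, so these fragments may come from either gene. MIR215 (chr1:220291195-220291304, GRCh37) was listed at 475 TPM in replicate 1 from 1 fragment and at 0 in the others. The pair of mature sequences (chr11:64891203-64891223 and chr1:220117916-220117936, minus strand, GRCh38.p14) shares the seed UGACCUA, shown in capitals. Neither level can be ranked at this depth, and libraries of fragmented messenger RNA do not measure the mature products. Short genes are left out of the ranks that follow.
hsa-miR-192-5p: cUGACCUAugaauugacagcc
hsa-miR-215-5p: aUGACCUAugaauugacagac

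Among the longer genes, the control was led by the translation machinery, simple-epithelium keratins and ferritin. TPT1, which encodes the translationally controlled tumor protein, ranked first in each library, with 13345, 13612 and 13223 TPM (13393 ± 199, SD, n = 3). Ribosomal protein genes took 12 of the first 20 places and 45 of the first 100, and together they held 17.6%, 17.2% and 15.7% of all TPM in replicates 1, 2 and 3. RPLP1, a protein of the ribosomal stalk, was among them at 6482, 6687 and 6308 TPM. Of the 87 ribosomal protein symbols, 82 reached 1 TPM in all 3 libraries, and 72 of those 82 were lowest in replicate 3, against 19.1% of all symbols at 1 TPM or more. The order within the first 20 was partly unresolved, since the ranks overlapped between libraries in 12 of the 19 pairs of neighbours. The expression was concentrated in few genes, with 525, 534 and 632 symbols holding 50% of the TPM. Many of the leading genes, including those for ribosomal proteins, ferritin, KRT8, KRT18, EEF1A1 and GAPDH, have near-identical processed pseudogenes, so their levels are uncertain to the extent that fragments were divided among copies, as for the pseudogene ANXA2P2, which was itself listed at 1763 ± 34.6 TPM.

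The remaining places near the top held genes of epithelial structure, iron storage and secretion. KRT8 and KRT18, which pair to form the keratin filaments of simple epithelia, stood at 7823, 8143 and 7833 TPM and at 6265, 7074 and 6603 TPM. Their ratio lay between 1.15 and 1.25 in the 3 libraries. The ferritin heavy chain gene FTH1 was at 7038, 7852 and 6148 TPM, and the light chain gene FTL at 5566, 5117 and 4249 TPM. The small calcium-binding protein genes S100A6 (6178 ± 291 TPM) and S100P (3950 ± 659 TPM) and the siderophore-binding lipocalin gene LCN2 (3912 ± 257 TPM) lay above ACTB (2447 ± 124 TPM) and GAPDH (2029 ± 108 TPM). Other genes expressed in epithelium, named after their values were seen, were also well above the housekeeping median of 354 TPM. Among them were the kallikrein KLK6 (2196 ± 171 TPM), the gut-type glutathione peroxidase GPX2 (1864 ± 67.1 TPM), lysozyme LYZ (1758 ± 122 TPM), the protease inhibitor SPINT2 (1494 ± 98.7 TPM) and the galectin LGALS4 (1524 ± 121 TPM). SLC1A5, the main glutamine carrier of many tumour cells, was at 2112, 2163 and 2396 TPM, level with B2M (2267 ± 94.0 TPM) within the spread of the libraries.

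**Figure D1:**
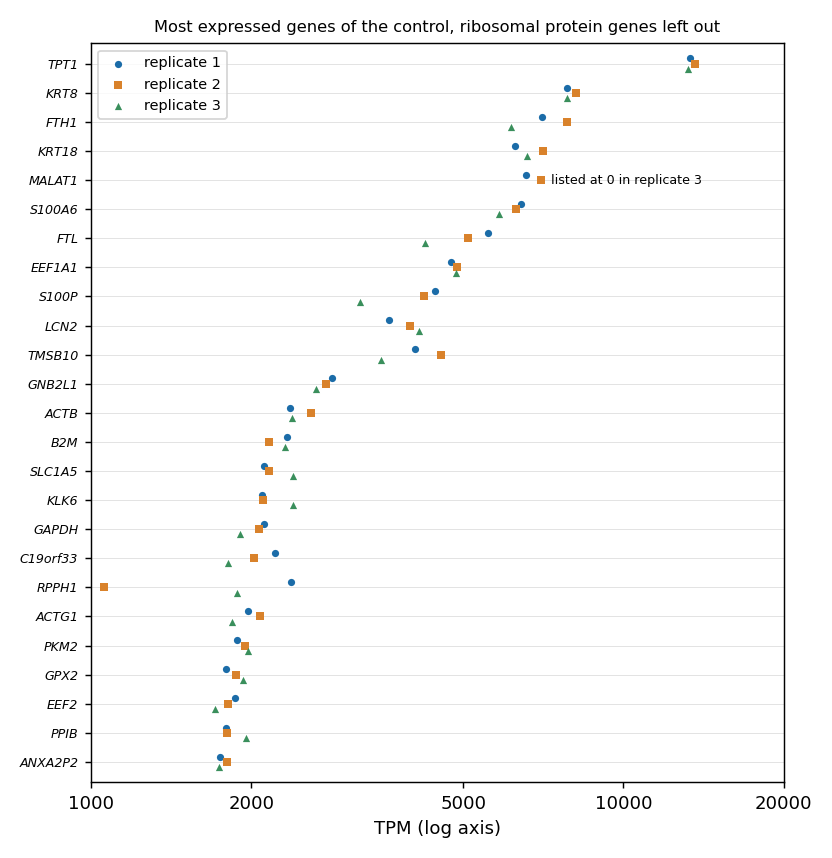
TPM (log axis) of the 25 most expressed genes that are neither short nor ribosomal protein genes, ordered by median rank, with 1 point for each control library. The 3 points of most genes lie close together, TPT1 stands apart above the rest, and MALAT1 is listed at 0 in replicate 3 and so has only 2 points.

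An exact 0 in the files was not always a silent gene. The nuclear long noncoding RNA gene MALAT1 was at 6560 and 7016 TPM in replicates 1 and 2 and was listed at 0 in replicate 3, although replicate 3 was the deepest library. In all, 38 symbols were at 0 in 1 or 2 libraries and at 100 TPM or more in another, and 37 of these were short, which left MALAT1 as the only longer one. A gene is therefore described below only as listed at 0. For genes at 0, the limit that a count of 0 allows is the level that 3 fragments would give in the shallowest library, and it is stated for the genes that matter most below. That limit covers counting error only.

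The epithelial character of the cells was clear in all 3 libraries. Each of the 16 epithelial identity genes reached 1 TPM and 11 of them (68.8%, against 6.56% of all symbols) were highly expressed. The surface adhesion gene EPCAM was at 679, 670 and 717 TPM, and E-cadherin, CDH1, the adhesion molecule of epithelial junctions, at 411, 418 and 468 TPM. The tight junction genes CLDN4 (562 ± 52.1 TPM), CLDN7 (310 ± 24.6 TPM), CLDN3 (222 ± 20.2 TPM) and TJP1 (131 ± 2.31 TPM) were highly expressed as well. The splicing regulator of epithelia ESRP1 was at 206 ± 3.51 TPM and its relative ESRP2 at 83.4 ± 5.80 TPM. P-cadherin, CDH3, was the lowest of the list at 1.78 ± 0.175 TPM. All 10 housekeeping genes also reached 1 TPM, and their range was wide, from 4822 ± 69.6 TPM for the elongation factor EEF1A1 to 9.36 ± 0.303 TPM for HPRT1 and 3.47 ± 0.549 TPM for the zinc finger gene ZNF311.

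Intestinal transcription factors were present, with the HNF factors above the caudal ones. Of 20 genes, 14 reached 1 TPM in all 3 libraries (70.0%, against 54.9% of all symbols), 3 were highly expressed and 1 was listed at 0 in all 3. KLF5, a factor of proliferating crypt cells, was the highest at 433, 462 and 466 TPM, followed by the epithelial ETS factors ELF3 (312 ± 18.2 TPM) and EHF (277 ± 16.9 TPM). HNF4A, a nuclear receptor that sustains enterocyte genes, was at 58.5, 54.3 and 63.2 TPM. CDX2, the homeobox factor that specifies intestine, was at 10.6, 12.3 and 11.7 TPM, so that HNF4A exceeded it 4.42-fold to 5.51-fold. CDX1 (0.654, 0.816 and 0.968 TPM) stayed below 1 TPM in every library. Of the factors of foregut or small intestinal territories, PDX1 was at 2.04, 1.62 and 1.95 TPM and the others were near or at 0. SOX2 and GATA4 were above 0 in replicate 3 alone, at 0.0691 and 0.0497 TPM, ISX in replicate 1 alone at 0.0919 TPM, and NKX2-1 was listed at 0, with a limit of 0.221 TPM.

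Surface and cytoskeletal genes of colon epithelium covered a wide range. Of the 17 in the files, 14 (82.4%, against 54.9% of all symbols) reached 1 TPM and 4 (23.5%, against 6.56%) were highly expressed. Those were LGALS4, the tetraspanin TSPAN8 (283 ± 13.9 TPM), the galectin LGALS3 (185 ± 17.1 TPM) and villin, VIL1, which bundles actin in the brush border (137, 156 and 187 TPM). The carcinoembryonic antigen genes differed among themselves, with CEACAM1 at 102 ± 9.33 TPM, CEACAM6 at 96.9 ± 12.7 TPM, CEACAM5 at 38.7 ± 4.32 TPM and CEACAM7 at 1.88 ± 0.375 TPM. CEACAM1 and CEACAM6 did not differ beyond their spread. CEACAM6 exceeded CEACAM5, the antigen measured in the clinic, 2.40-fold to 2.66-fold. Liver-intestine cadherin, CDH17, was at 9.45, 10.1 and 12.6 TPM. GPA33, a surface antigen of most colon tumours, was low at 2.49, 1.10 and 1.79 TPM, and GUCY2C, the guanylin receptor, was at 0.161, 0.0270 and 0 TPM. The receptor that carries immunoglobulins into the lumen, PIGR, reached at most 0.789 TPM.

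Mature absorptive genes were mostly low, apart from a pair of markers. Of 22 genes, 9 (40.9%, against 54.9% of all symbols) reached 1 TPM in all 3 libraries and 4 (18.2%) were listed at 0. That share at 0 compares with 23.7% of all symbols and 4029 of the 21609 longer ones. Of the 22, 2 were highly expressed. Those 2 were KRT20, the keratin of surface colonocytes, with 1217, 1237 and 1152 TPM, and the membrane carbonic anhydrase CA12, with 492, 532 and 646 TPM. The cytosolic carbonic anhydrase of normal colonocytes, CA2, was at 10.1, 9.57 and 9.84 TPM, and CA12 exceeded it 48.5-fold to 65.7-fold. DPP4, a brush border peptidase, was at 68.7 ± 4.44 TPM. The chloride-bicarbonate exchanger SLC26A3, a defining gene of mature colonocytes, was at 0.217, 0.0365 and 0 TPM, and CA1 at 0, 0.199 and 0.566 TPM. Sucrase-isomaltase, SI, was at 0.327, 0.101 and 0.192 TPM. The water channel AQP8, the alkaline phosphatase ALPI, the magnesium channel TRPM6 and MS4A12 were listed at 0 in all 3, with limits between 0.0546 and 0.455 TPM.

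Genes of the goblet programme were more evenly present. Of the 19 goblet and secretory genes in the files, 14 (73.7%, against 54.9% of all symbols) reached 1 TPM. Of the 19, 3 (15.8%, against 6.56%) were highly expressed and 2 were listed at 0. AGR2, a protein disulfide isomerase needed for mucin folding, was at 1100, 1219 and 1226 TPM and ranked within the first 100 longer genes. MUC2, the gel-forming mucin of the colon, was at 24.2, 26.9 and 24.0 TPM, so that AGR2 exceeded it 45.2-fold to 51.1-fold. The goblet factor SPDEF was at 59.9 ± 4.60 TPM and CREB3L1, a factor of the secretory pathway, at 210 ± 15.5 TPM. ATOH1, which commits crypt cells to the secretory lineage, was lower, at 4.62, 2.87 and 3.45 TPM. The trefoil peptide genes were ordered TFF3 (30.0 ± 7.71 TPM), TFF1 (10.5 ± 1.81 TPM) and TFF2 (3.76 ± 0.786 TPM), without overlap of their 3 values. FCGBP, a mucus component of goblet cells, was at 18.2 ± 2.46 TPM, whereas CLCA1 reached at most 0.164 TPM and ZG16 and ITLN1 were listed at 0.

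**Figure D2:**
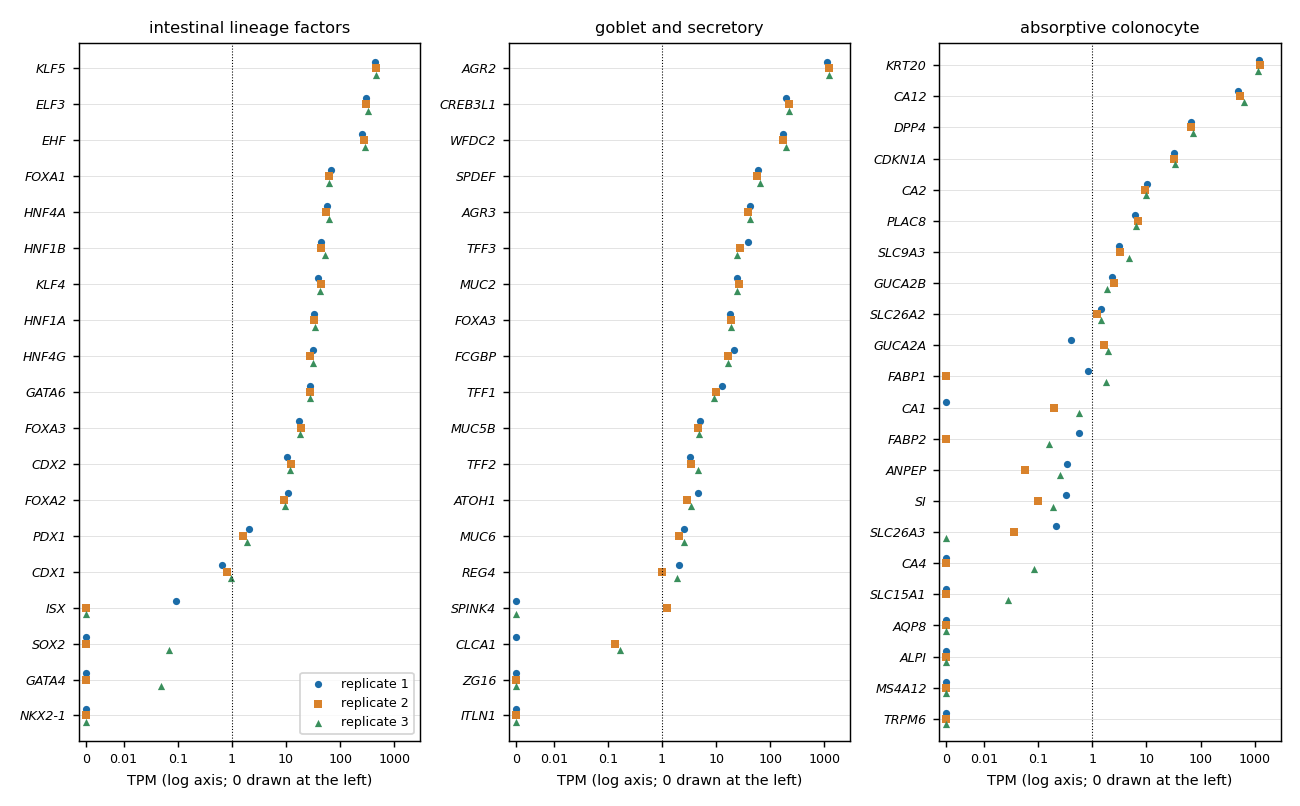
TPM (log axis, with values of 0 drawn at the left edge and a dotted line at 1 TPM) of 19 of the 20 intestinal lineage factors and of goblet and secretory genes and absorptive colonocyte genes, with 1 point for each control library. KLF5, AGR2 and KRT20 lead the panels, and the lower part of the absorptive panel holds 4 genes at 0 in all 3 libraries.

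Genes of the rarer cell types were mostly low, and the share of tuft cell genes that reached 1 TPM was near that of all symbols. Of 18 enteroendocrine genes, 5 (27.8%, against 54.9% of all symbols) reached 1 TPM in all 3 libraries and none was highly expressed. The hormone gene SST, at 4.18, 6.08 and 7.02 TPM, and the endocrine factor PAX4, at 4.95, 3.11 and 8.49 TPM, had the highest means and overlapped. The granule protein gene CHGA, a defining marker, was at 0.530 ± 0.210 TPM, and CHGB, NEUROD1 and PYY were listed at 0, with limits of 0.195, 0.192 and 1.08 TPM. The limit of PYY is above 1 TPM, so its 0 says little. Of the 10 Paneth genes 6 (60.0%, against 23.7% of all symbols) were listed at 0. Among them were the defensins DEFA5 and DEFA6, with limits of 1.73 and 1.66 TPM, both above 1 TPM. The 3 above 1 TPM were LYZ, the matrix protease MMP7 (38.6 ± 7.85 TPM) and PRSS2 (5.21 ± 1.45 TPM). Of 10 tuft cell genes, 6 (60.0%, near the 54.9% of all symbols) reached 1 TPM. They were led by the lipoxygenase ALOX5, at 33.0, 37.2 and 40.9 TPM. The tuft factor POU2F3 was at 2.44, 3.95 and 6.76 TPM and the taste channel TRPM5 at 3.33, 3.17 and 5.17 TPM. The tuft marker DCLK1 was at 0, 0 and 0.0109 TPM. In such bulk libraries, a low level in every cell and a high level in a few cells cannot be told apart.

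Most Wnt target and stem cell genes were expressed, at levels that ranged widely within both kinds. Of 22 genes, 15 (68.2%, against 54.9% of all symbols) reached 1 TPM. Of the 22, 3 (13.6%, against 6.56%) were highly expressed and 3 (13.6%, against 23.7%) were listed at 0. The feedback ligase RNF43 was at 215, 226 and 267 TPM, the hyaluronan receptor CD44 at 200, 200 and 259 TPM and the growth regulator MYC at 209, 195 and 194 TPM. RNF43 was above MYC in each library, and CD44 overlapped with both. The crypt factor SOX9 (114 ± 4.09 TPM) and the feedback inhibitor AXIN2 (61.8 ± 6.61 TPM), a direct target of canonical Wnt signalling, followed. Of the genes linked to stem or progenitor cells, BMI1 was at 66.2 ± 4.92 TPM, PROM1 at 47.2 ± 3.20 TPM and LRIG1 at 19.1, 19.3 and 21.5 TPM. LGR5, the marker of crypt base stem cells, was lower, at 1.04, 1.03 and 1.43 TPM, and ASCL2, which controls it, at 2.14, 2.21 and 2.53 TPM. KRT20 exceeded LGR5 806-fold to 1203-fold. OLFM4, another stem cell marker, was listed at 0 with a limit of 0.166 TPM, APCDD1 and MSI1 were listed at 0 too, and LEF1 was above 0 in replicate 3 alone at 0.0654 TPM. The Wnt targets NOTUM (1.31 ± 0.433 TPM) and NKD1 (0.546 ± 0.218 TPM) were low as well.

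All 18 colorectal cancer driver genes were transcribed above 1 TPM, and 4 (22.2%, against 6.56% of all symbols) were highly expressed. Those were the receptor MET (170 ± 7.51 TPM), the receptor ERBB3 (169 ± 14.2 TPM), SMAD3 (164 ± 7.71 TPM) and beta-catenin, CTNNB1 (117, 115 and 118 TPM). HT-29 is known to carry altered APC, BRAF, PIK3CA and SMAD4, which expression values alone do not show. APC was at 17.8, 17.7 and 18.2 TPM, PIK3CA at 17.1, 18.9 and 20.6 TPM and BRAF at 13.4, 12.7 and 15.1 TPM. SMAD4, the common mediator of TGF-beta and BMP signals, was the lowest of the 18, at 5.11, 5.49 and 7.08 TPM, and no other driver came below 12 TPM in any library.

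Ligands of the EGF receptor and feedback genes of the MAP kinase cascade were broadly expressed. Of 20 genes, 18 reached 1 TPM and 3 were highly expressed. The receptor EGFR itself was at 48.3 ± 2.58 TPM. Among its ligands, amphiregulin, AREG, was the highest at 133, 121 and 128 TPM, ahead of EREG (68.3 ± 1.02 TPM), TGFA (58.5 ± 4.25 TPM) and HBEGF (42.9 ± 4.12 TPM). BTC was at 5.48 ± 0.768 TPM, and EGF (0.361 ± 0.0628 TPM) and EPGN (0.337 ± 0.254 TPM) were below 1 TPM. Among the targets, the ephrin receptor EPHA2 (231 ± 17.2 TPM), the ETS factor ETV4 (134 ± 7.75 TPM) and the ERK phosphatase DUSP6 (86.7 ± 3.74 TPM) led, while DUSP4 was at 14.5 ± 1.11 TPM. Of 8 mismatch repair genes 7 (87.5%, against 54.9% of all symbols) reached 1 TPM. PMS2 was at 24.5, 24.2 and 23.5 TPM and MSH6 at 17.1 ± 1.16 TPM.

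Glycolytic genes stood out for their level. Of 22, 21 (95.5%, against 54.9% of all symbols) reached 1 TPM and 11 (50%, against 6.56%) were highly expressed. GAPDH was at 2115, 2065 and 1907 TPM and pyruvate kinase, PKM (listed as PKM2), at 1880, 1944 and 1975 TPM. The ratio of PKM to GAPDH lay between 0.889 and 1.04. Aldolase ALDOA (1073 ± 33.1 TPM) and enolase ENO1 (869 ± 71.0 TPM) followed, and the glucose carrier SLC2A1 was at 381 ± 27.2 TPM. Of the lactate dehydrogenase genes, LDHB (696 ± 45.3 TPM) was above LDHA (403 ± 15.6 TPM) in each library, with a ratio of LDHA to LDHB of 0.521 to 0.639. The hypoxia-induced carbonic anhydrase CA9 was at 20.1, 15.6 and 23.5 TPM.

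All 22 proliferation genes reached 1 TPM, mostly at middle levels, and they differed between the control cultures in a common direction. CDK4 (139 ± 3.92 TPM) was the only highly expressed member (4.55%, against 6.56% of all symbols), and cyclin D1, CCND1, was next at 92.2, 91.4 and 78.0 TPM. MKI67, the gene of the Ki-67 antigen, was at 20.9, 15.9 and 13.3 TPM, TOP2A, the topoisomerase of dividing cells, at 15.4, 10.9 and 8.06 TPM, and the mitotic kinase CDK1 at 9.38, 5.35 and 3.22 TPM. In these 3 genes replicate 1 was the highest and replicate 3 the lowest. Replicate 1 was the highest of the 3 for 18 of the 22 genes and replicate 3 the lowest for 15. Of all symbols at 1 TPM or more, 22.2% were highest in replicate 1 and 19.1% lowest in replicate 3. The median log2 difference of replicate 3 minus replicate 1 was -0.31 over the list and 0.11 over all those symbols. MCM7 (80.4, 73.1 and 85.4 TPM) and TYMS (4.33, 5.15 and 5.35 TPM) were highest in replicate 3. A low replicate 3 was not particular to this list. The share of genes lowest in replicate 3 varied among lists, with 87.8% of the 82 ribosomal protein genes and 6.25% of the 16 epithelial identity genes. Replicate 1 was also the shallowest library and replicate 3 the deepest, and the part of depth in the pattern of the proliferation genes was not tested.

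The 10 genes of widest range between the cultures included small RNA genes and interferon-induced genes. The range was taken on log2(FPKM + 1) as deposited, without scaling between libraries. The order and membership of the 10 can therefore differ from those in TPM, in which the levels are printed. Among the 1758 longer genes in the top 10% by mean, MALAT1 had the widest range, through its 0 in replicate 3. It was followed by the small RNA genes SCARNA7 (142, 59.7 and 150 TPM) and RPPH1 (2374, 1056 and 1878 TPM), which are not polyadenylated, and the libraries were made from purified messenger RNA. The next were IFIT1 (136, 119 and 81.5 TPM), the glycosidase gene ATHL1 (248, 249 and 532 TPM) and IFITM3 (156, 147 and 101 TPM), with ISG15 (1227, 1022 and 797 TPM), SCARNA9 (78.0, 99.9 and 162 TPM), IFI27 (862, 755 and 569 TPM) and PLSCR1 (210, 188 and 149 TPM) completing the 10. IFIT1, IFITM3, ISG15, IFI27 and PLSCR1 are induced by interferon, and each of the 5 was highest in replicate 1 and lowest in replicate 3. However, 1 TPM equals 5232 FPKM in replicate 1 and 4495 in replicate 3. A choice by range in FPKM thus favours genes low in replicate 3, and the shared order is in part set by that choice.

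**Figure D3:**
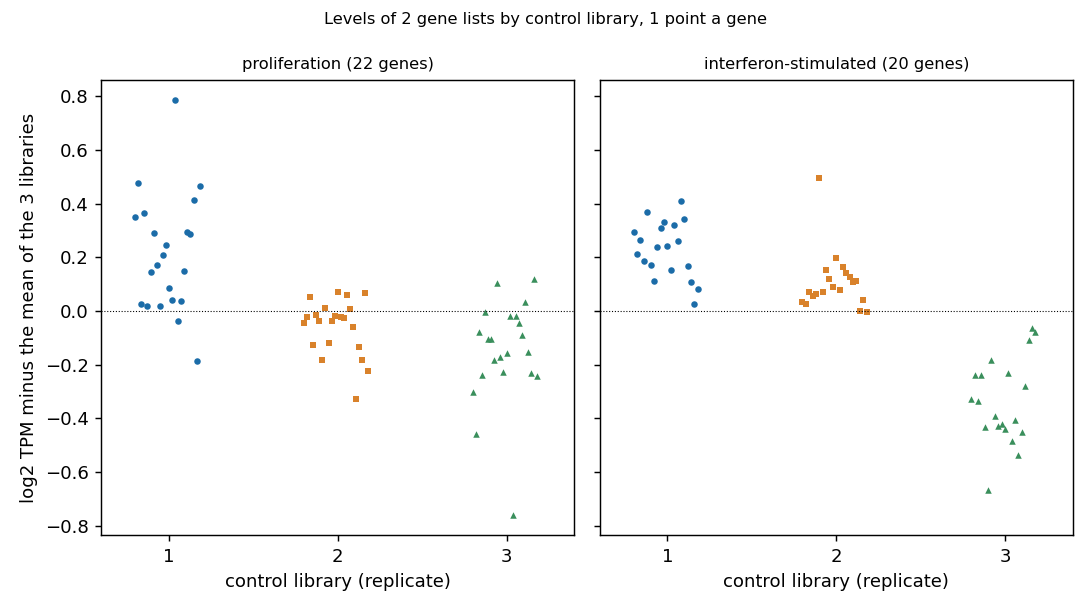
Log2 TPM minus the mean of the 3 control libraries, for the proliferation list (left, 22 genes) and for interferon-stimulated genes chosen after the values were seen (right, 20 genes), with 1 point for each gene in each library. Replicate 3 was the lowest for all 20 interferon-stimulated genes and for 15 of the 22 proliferation genes.

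HOX genes, which mark position along the body axis, were transcribed from the A and B clusters and part of the C cluster, and hardly from the D cluster. Of 39 genes, 27 (69.2%, against 54.9% of all symbols) reached 1 TPM, 2 (5.13%, against 6.56%) were highly expressed and 3 were listed at 0. HOXB9 was the highest at 263, 277 and 292 TPM, above HOXB6 (136 ± 12.9 TPM) and HOXA10 (91.5 ± 4.03 TPM). HOXB13, the posterior member of the B cluster expressed in distal colon, was at 5.63, 7.28 and 6.27 TPM, so that HOXB9 exceeded it 38.1-fold to 46.7-fold. In the C cluster HOXC4 (23.1 ± 3.93 TPM) and HOXC6 (22.6 ± 2.27 TPM) led. In the D cluster HOXD13 was the only gene above 1 TPM in all 3 libraries, at 1.45, 1.62 and 1.13 TPM, and HOXD1, HOXD10 and HOXD11 were listed at 0.

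Genes of other cell types were mostly low or listed at 0, and each list had a few exceptions. The share that reached 1 TPM was 8.33% to 27.3% in these lists, against 54.9% of all symbols. The share at 0 was clearly above that of all symbols only in the mesenchymal (50%) and hepatocyte (42.9%) lists. In the fibroblast, endothelial, leukocyte and squamous lists the share at 0 was near the 23.7% of all symbols, at most 27.3%. Of 16 mesenchymal genes, 8 (50%, against 23.7% of all symbols) were listed at 0, including N-cadherin, CDH2, and the factors SNAI2, TWIST1 and TWIST2, and the intermediate filament gene VIM was at 0, 0 and 0.0413 TPM. S100A4, at 1518, 1660 and 1828 TPM, was the exception, and TAGLN (14.0, 16.9 and 24.4 TPM) and SNAI1 (4.30, 3.87 and 2.08 TPM) were the others above 1 TPM in each library. Of 12 fibroblast genes, LUM alone reached 1 TPM in all 3 (4.03 ± 0.956 TPM), and COL1A2 and COL3A1 were above 0 in replicate 3 alone. Of 10 endothelial genes, ESAM (69.9 ± 3.20 TPM) and ENG (17.7 ± 2.27 TPM) reached 1 TPM, while the defining genes CDH5 and KDR were listed at 0. Of 14 leukocyte genes 3 reached 1 TPM in all libraries, namely LYZ, CD68 (25.3 ± 1.56 TPM) and CD14 (8.15 ± 0.996 TPM), while the pan-leukocyte gene PTPRC was at 0, 0 and 0.0343 TPM and the T cell genes CD3D and CD3E were listed at 0. Of 14 hepatocyte genes, SERPINA1 (232, 218 and 235 TPM), APOH (68.4 ± 1.48 TPM) and CYP3A4 (1.68 ± 0.741 TPM) reached 1 TPM, and albumin, ALB, and AFP were listed at 0. Of 11 squamous and basal genes, KRT17 (15.4 ± 1.63 TPM), KRT15 (9.08 ± 1.37 TPM) and SPRR1B (3.24 ± 1.61 TPM) reached 1 TPM, and KRT5 was listed at 0.

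**Figure D4:**
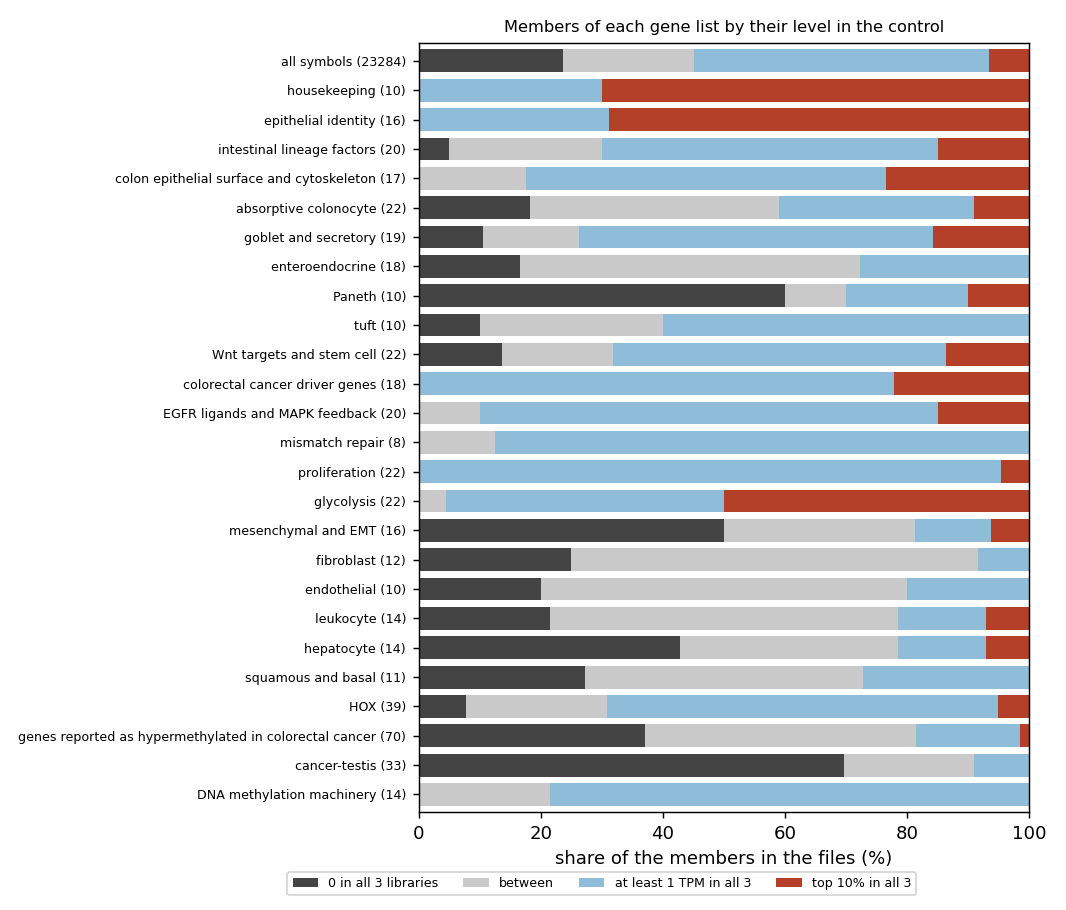
Share of the members of each gene list (percent, number in the files in brackets) that were listed at 0 in all 3 control libraries, lay between, reached 1 TPM in all 3, or were within the top 10% in all 3, with all 23284 symbols in the first row. Among the 25 lists drawn, epithelial identity (68.8%) and glycolysis (50%) have the largest shares in the top 10% besides housekeeping genes, and cancer-testis genes (69.7%) the largest share at 0.

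Genes that colon tumours may silence were examined in a list of 70 genes reported in the literature as hypermethylated in colorectal cancer. Methylation itself was not measured in these libraries. Of the 70 genes, 26 (37.1%, against 23.7% of all symbols) were listed at 0 in all 3 libraries, 13 (18.6%, against 54.9%) reached 1 TPM in all 3, and 1 was highly expressed. The secreted Wnt antagonists SFRP1, SFRP2 and SFRP4 were at 0, while SFRP5 was at 0.524, 0.469 and 0.476 TPM and WIF1 at 0.0719, 0 and 0.118 TPM. SPARC, which encodes a matrix protein of stromal cells, was at 0 in each library, with a limit of 0.135 TPM. Also at 0 were the screening markers SDC2 and BMP3, the axon guidance gene SLIT2, the Ras-binding gene RASSF2, the endodermal factor SOX17, the noncanonical ligand WNT5A, the transmembrane gene TMEFF2 and the cysteine dioxygenase CDO1. The limits for these lay between 0.0560 and 0.322 TPM. Of the genes between, UNC5C, a netrin receptor, reached at most 0.0329 TPM and the helicase-like HLTF at most 0.0369 TPM.

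Some genes of the same list were well expressed in the control. SEPT9, whose methylation is used in blood tests, was at 230, 249 and 245 TPM and was the highly expressed member. IGF2, an imprinted growth factor gene, was at 62.3, 74.1 and 89.0 TPM, RASSF1 at 28.5, 32.5 and 31.9 TPM and THBS1 at 21.6, 22.0 and 24.0 TPM. The repair gene MGMT was at 17.2, 19.4 and 19.3 TPM, level with APC. The mitotic checkpoint gene CHFR was at 7.66 ± 1.14 TPM and DKK1, another Wnt antagonist, at 4.49, 3.32 and 3.59 TPM.

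Genes with few CG dinucleotides before their start were more often listed at 0 than CG-rich genes. CG dinucleotides were counted in the 250 bases before the start for the 11582 of 21609 longer symbols that have 1 listed start in the RefSeq promoter table (GRCh38.p14). The median was 18 over all of these, 4 in genes listed at 0 in all 3 libraries, 21 in genes at 1 TPM or more and 23 in highly expressed genes. Of genes with 0 to 4 CG dinucleotides, 46.2% were listed at 0, against 6.79% of those with 25 or more. In the hypermethylated list the median was 24 in the 13 genes at 0 with a value, 24.5 in the 6 genes at 1 TPM or more and 21 in the 15 genes between. Most genes of that list are CG-rich, with 10 or more CG dinucleotides in 88.2% of those with a value. A value was at hand for 34 of the 70 genes, those with 1 listed start. In the 18 cancer-testis genes with a value the median was 10.5, and in the 13 goblet genes it was 5.

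**Figure D5:**
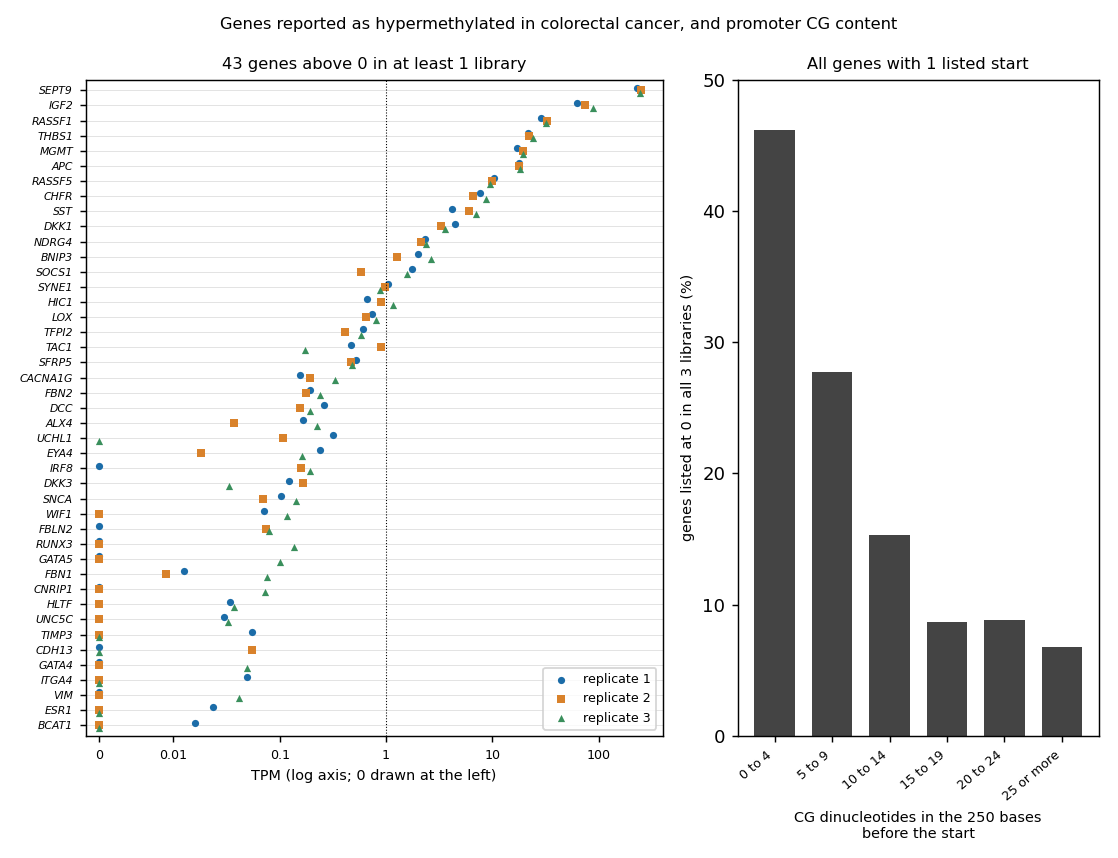
Left, TPM (log axis, with values of 0 drawn at the left edge and a dotted line at 1 TPM) of 43 of the 44 genes reported as hypermethylated that were above 0 in at least 1 control library. Right, share of all genes with 1 listed start that were listed at 0 in all 3 libraries, by the number of CG dinucleotides in the 250 bases before the start, which goes from 46.2% in the lowest class to 6.79% in the highest.

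The range of CG content among genes at 0 and highly expressed genes is shown by the 250 bases before the start of 6 genes, 3 from the hypermethylated list at 0, 1 stem cell gene at 0 and 2 highly expressed gut genes, with every CG in capitals. All are 5′ to 3′ on the gene's strand from RefSeq (GRCh38.p14), and a gene may use other starts in these cells. CDO1 (chr5:115816660-115816909, minus strand) has 26 CG dinucleotides, TMEFF2 (chr2:192194934-192195183, minus strand) 18 and SPARC (chr5:151686916-151687165, minus strand) 7. OLFM4 (chr13:53028563-53028812, plus strand) has 1, AGR2 (chr7:16805000-16805249, minus strand) 3 and LGALS4 (chr19:38812946-38813195, minus strand) 6. The 6 are examples and do not stand for their classes, since AGR2 and LGALS4 lie below the median of 23 of highly expressed genes, 92.6% of which have 10 or more, and SPARC lies below the median of 24 of its list. The first 4 genes were at 0 in each library, and the last 2 stood at 1182 ± 70.6 and 1524 ± 121 TPM.
CDO1: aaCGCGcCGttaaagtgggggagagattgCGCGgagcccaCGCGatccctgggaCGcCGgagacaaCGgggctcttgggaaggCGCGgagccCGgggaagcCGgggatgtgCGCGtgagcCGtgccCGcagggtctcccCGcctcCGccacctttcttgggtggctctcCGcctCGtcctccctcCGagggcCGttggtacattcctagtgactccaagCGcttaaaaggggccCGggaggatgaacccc
TMEFF2: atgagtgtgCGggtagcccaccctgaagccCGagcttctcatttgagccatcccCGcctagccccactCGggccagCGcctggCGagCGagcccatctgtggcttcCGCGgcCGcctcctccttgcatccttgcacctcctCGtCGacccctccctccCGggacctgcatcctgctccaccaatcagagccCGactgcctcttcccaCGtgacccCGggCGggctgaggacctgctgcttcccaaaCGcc
SPARC: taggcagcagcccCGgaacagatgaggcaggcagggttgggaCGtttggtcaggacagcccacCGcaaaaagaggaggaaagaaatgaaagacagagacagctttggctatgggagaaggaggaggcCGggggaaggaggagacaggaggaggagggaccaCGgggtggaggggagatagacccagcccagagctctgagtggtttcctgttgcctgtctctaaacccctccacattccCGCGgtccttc
OLFM4: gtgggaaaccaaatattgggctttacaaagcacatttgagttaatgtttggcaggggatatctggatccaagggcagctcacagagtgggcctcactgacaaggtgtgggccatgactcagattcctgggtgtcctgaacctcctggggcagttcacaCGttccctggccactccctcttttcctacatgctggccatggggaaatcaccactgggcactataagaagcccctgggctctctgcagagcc
AGR2: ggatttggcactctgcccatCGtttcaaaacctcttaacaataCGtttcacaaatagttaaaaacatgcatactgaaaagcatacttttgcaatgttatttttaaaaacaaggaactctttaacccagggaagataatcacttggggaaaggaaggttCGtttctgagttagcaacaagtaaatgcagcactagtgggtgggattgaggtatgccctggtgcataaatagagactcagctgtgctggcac
LGALS4: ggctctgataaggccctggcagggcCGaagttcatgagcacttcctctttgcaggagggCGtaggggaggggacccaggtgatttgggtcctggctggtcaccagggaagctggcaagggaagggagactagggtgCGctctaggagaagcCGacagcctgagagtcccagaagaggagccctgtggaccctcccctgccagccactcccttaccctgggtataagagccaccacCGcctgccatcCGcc

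Cancer-testis genes, which are normally transcribed in germ cells only, were largely listed at 0. Of the 33 in the files, 23 (69.7%, against 23.7% of all symbols) were at 0 in all 3 libraries, 3 (9.09%, against 54.9%) reached 1 TPM in all 3 and none was highly expressed. The 3 belong to the MAGEA family, with MAGEA3 at 8.67, 8.69 and 7.78 TPM, MAGEA12 at 5.73, 5.07 and 5.09 TPM and MAGEA6 at 2.93, 4.37 and 4.45 TPM. MAGEA3 and MAGEA6 are near-identical, so fragments could not be divided between them with certainty. Among those at 0 were MAGEA1 and MAGEA4, with limits of 0.291 and 0.289 TPM, PRAME with 0.209 TPM, and the SSX, XAGE and SPANX members of the list. SYCP3, a protein of the meiotic chromosome axis, was at 1.46, 0.978 and 1.85 TPM.

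The enzymes that write, keep and remove DNA methylation, with the Polycomb genes that act beside them, were at middle levels. Of 14 genes, 11 (78.6%, against 54.9% of all symbols) reached 1 TPM and none was highly expressed. DNMT1, which maintains methylation after replication and is a target of 5-Aza, was at 22.7, 23.4 and 23.5 TPM, and the de novo enzyme DNMT3A at 18.4, 18.7 and 20.4 TPM. The other de novo enzyme, DNMT3B, was lower and more variable, at 0.527, 0.702 and 1.33 TPM. The ratio of DNMT1 to DNMT3B accordingly lay between 17.7 and 43.1. UHRF1, which guides DNMT1 to new DNA, was at 3.61 ± 0.191 TPM. Among the dioxygenases that oxidise methylcytosine, TET3 (30.8 ± 2.29 TPM) was above TET2 (7.93 ± 0.799 TPM), and TET1 reached at most 0.0940 TPM. The Polycomb genes SUZ12 and EZH2 were at 81.7 ± 2.05 and 33.1 ± 0.865 TPM.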

How the data were processed

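Triplicate cultures of HT-29 cells that had received vehicle alone were analysed. According to the study's methods and labels, messenger RNA was purified, fragmented and sequenced with paired ends of 100 bp, the reads were filtered with FASTX-Toolkit and aligned to hg19 with TopHat, and Cufflinks gave the FPKM values of each gene that the authors deposited. The annotation version and the library term are not given in the sources used here. The deposited FPKM values sum to 5.91e+09, 5.65e+09 and 5.19e+09 in replicates 1, 2 and 3 and were used as relative values. The 6 files of drug-treated cultures were not used.

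Entries of the same symbol were summed (543 symbols on 2193 of 24934 entries). TPM was computed over symbols that are not short, which left out 1675 symbols holding 8.68% to 13.4% of the summed FPKM. Lengths came from GENCODE on GRCh37 for 21151 symbols, of which 1895 matched by another name. No test was run, since there was 1 group, and no library was removed. A limit of 10 FPKM removes few values, since 1 fragment at a gene of 110 nt was worth at least 1163630 FPKM.

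Depth was estimated from the steps of low values, which depend on length less 200 nt. Of 1269 genes with clean steps, 45.9% lay within 15% of the relation to the annotated length. With double the relation allowed as well, the share was 63.4%. Single estimates, and the limits for genes at 0, are therefore approximate. The script was tested on simulated data, where 100% of the estimates over 19770 genes came within 10%. Those data were made from the same kind of relation and the same lengths, so the test checks the code and not the relation. The limit for a gene at 0 is the level of 3 fragments.

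Members and lists were chosen with earlier results of these data known. Genes named are the 20 best by median rank over all symbols and over longer symbols, and SPARC, GAPDH and ZNF311. Also named are the 10 of widest range in deposited FPKM among the top 10% by mean, and list members (the highest, those at 0 and defining markers). A few genes under this rule are counted in their lists and are not reported here by name. S100P, LCN2, KLK6, GPX2, SPINT2, SLC1A5, ANXA2P2, and DDX5, SERF2 and ZFAS1 as hosts of short genes, were named after their values were seen. Alternatives were other detection limits, the largest entry of repeated symbols, other length limits, a pseudocount of 0.1 in place of 1, median-of-ratios scaling and each replicate left out. Tables were made with pandas 2.3.3 and numpy 2.4.6 and figures with matplotlib 3.10.9 under Python 3.11.15.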

Additional observations from a re-analysis of the deposited data

How the results depend on the processing

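Every result below is a count or a level with no test. The number of genes of the hypermethylated list at 0 was 26, and it moved with the definition. It was 45 when under 10 estimated fragments in each library was taken in place of 0 and 54 when below 1 TPM in all 3 libraries was taken, an alternative chosen after seeing the data. It was 27 below 100 FPKM, 26 with the largest entry of repeated symbols, and 27 to 31 with each replicate left out. The count of symbols detected, 15338, lay between 12773 and 17656 under the other limits and between 15485 and 15895 with each replicate left out. Of the first 20 longer genes, 17 stayed with a limit of 500 nt, 15 with all genes ranked and 19 with any replicate left out, and all 20 stayed under the other alternatives. Of the 25 lists of the report, 13 had a larger share of highly expressed genes than all symbols, and 11 with the top 25% in place of the top 10%. The 13 include the leukocyte and hepatocyte lists, whose share of 7.14% is near that of all symbols. The median SD of log2(FPKM + 1) over symbols above 0 in any library was 0.17, with a range of 0.11 to 0.17 with each replicate left out, the lowest without replicate 3, and 0.15 to 0.17 under the other alternatives. TPM over all symbols lowered each level to between 0.866 and 0.913 of its value, by construction. No paired analysis was possible because the 3 libraries form 1 group.

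Genes under about 1 TPM rest on few fragments, and a level at 0 can be a failed estimate. Short genes, genes inside exons of others and genes with near-identical copies are uncertain. FPKM without the annotation version leaves the length behind each value unknown. The lists hold different numbers of genes, and shares over 10 genes move in steps of 10%.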

Other observations

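The 3 gene groups below were chosen after their values were seen, so their counts are a description. Genes of amino acid supply that respond to the stress factor ATF4 were high in the control. Of 22 genes, 17 (77.3%, against 6.56% of all symbols) were within the top 10% in all 3 libraries. The carriers SLC1A5 (2224 ± 151 TPM), SLC3A2 (1327 ± 45.7 TPM) and SLC7A5 (836 ± 18.0 TPM) led the group. ATF4 itself was at 828, 816 and 794 TPM, asparagine synthetase, ASNS, at 610, 611 and 603 TPM, and the pseudokinase TRIB3 at 517, 536 and 532 TPM. STC2 was listed at 0, and ALDH1L2 was at 0.256 ± 0.0163 TPM. Of 19 genes of iron storage and peroxide handling, 13 (68.4%, against 6.56% of all symbols) were within the top 10%. GPX2 exceeded the ubiquitous GPX1 (231, 209 and 182 TPM) 7.76-fold to 10.6-fold. The iron exporter SLC40A1 was at 172 ± 15.7 TPM and the heme oxygenase HMOX1 at 8.78 ± 1.09 TPM.

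Interferon-stimulated genes were expressed without drug and differed between the cultures. All 20 of the group reached 1 TPM in each library and 7 (35.0%, against 6.56% of all symbols) were within the top 10%. ISG15, a ubiquitin-like modifier, was at 1227, 1022 and 797 TPM, and MX1, a GTPase against viruses, at 119, 97.9 and 61.7 TPM. Replicate 1 was the highest for 18 of the 20 genes and replicate 3 the lowest for all 20, against 22.2% and 19.1% of all symbols at 1 TPM or more. IFIT1, IFITM3, ISG15 and IFI27 of this group are also among the 10 genes of widest range, which had drawn attention to this order. That range was taken in deposited FPKM, which favours genes low in replicate 3. The median log2 difference of replicate 3 minus replicate 1 was 0.11 in TPM over all those symbols, and over the group it was -0.62 in TPM, -0.74 with median-of-ratios scaling, -0.84 in FPKM as deposited and -0.66 in TPM over all symbols. For the 22 proliferation genes the same differences were -0.31, -0.42, -0.53 and -0.34. Under each of these scalings replicate 3 was lowest for most genes of both groups, 15 to 19 of 22 and 20 of 20. Each scaling applies 1 factor to a whole library and shifts all genes alike, so it cannot test the order against other genes. The value over all symbols is given in TPM only. Replicate 3 was also lowest for 12 of 20 amino acid genes, 12 of 19 iron and peroxide genes and 72 of 82 ribosomal protein genes. For the 16 epithelial identity genes this held for 1. Replicate 3 was the deepest library, and the part of depth in the order of the interferon and proliferation genes was not tested.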
